A study of Mus musculus with 435 samples.

Results

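RNA of single somatic cells from the fetal mouse testis was compared between E16.5, when testis cords are established and Leydig cells lie between them, and E12.5, when cords have just formed. The cells were the columns of the 2 E16.5 captures (33 and 35 cells) and of the 2 E12.5 captures (30 and 38 cells), 136 of the 400 cells with values in the series. Both groups were NR5A1-eGFP embryos on a mixed background, and the labels name no other allele and no agent. Cells came from XY gonads, were sorted as green and as negative for the dead-cell dye Draq7, and were caught on small microfluidic chips (Fluidigm C1). The green reporter is driven by Nr5a1, a transcription factor of gonadal and adrenal somatic cells, so cells without it, such as most germ, blood and vessel cells, were not meant to be in the sort. A capture is the cells of 1 chip run and was taken as the replicate. The number of embryos behind a capture is not stated, so p-values measure the spread between captures, which may be technical.

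In the testis, Sertoli cells line the cords and nurse the germ cells. They arise from Nr5a1-positive progenitors under Sox9, and then secrete anti-Müllerian hormone and inhibins and acquire the receptor for follicle-stimulating hormone. Fetal Leydig cells lie between the cords and make androgens from cholesterol, while other interstitial cells remain progenitors. The gonad is covered by the coelomic epithelium, from which early supporting cells descend.

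A minimum of 3000 detected genes removed 3 cells, all from E16.5. In the second E12.5 capture, wells 49 and 56 were averaged, as their correlation was 0.998, against 0.666 for the next closest pair of cells. In all, 31 and 34 cells of E16.5 and 30 and 37 cells of E12.5 remained. The column names of all 4 captures share the same date-like field, taken here as the sequencing run, which the labels do not name. The labels give the depth as 10 M reads of 100 bases, paired. The depth implied by the values had a median of 2.61 and 2.70 M reads per cell at E16.5, against 3.24 and 3.09 M reads at E12.5, and cells had a median of 5587 and 4904 detected genes at E16.5, against 5284 and 5634 at E12.5. The second E12.5 capture stood apart from the first. Sox9 was at 1 RPKM or more in 34 of its 37 cells and the interstitial marker Pdgfra in 34 of 37, both in 31 of 37, against 11 of 30 cells with both in the first E12.5 capture. It also held all 10 cells with at least 3 germ cell markers. A cluster led by the germ cell gene Dppa3 took 13 of its cells, which were all 13 kept cells in its chip wells 30 to 47. Some Sertoli markers, such as Sox9 and Amh, and some Leydig markers, such as Cyp17a1 and Cyp11a1, were found in all 4 captures. Others were not, such as the Sertoli markers Serpina5 and Fshr, which reached 1 RPKM in no E12.5 cell. Of the 7 adrenal cortex genes, Cyp21a1, Cyp11b1 and Cyp11b2, which make corticosteroids, were at 0 in all 4 captures, and the list summed to 17.02 and 11.3 RPKM at E16.5, against 31.02 and 21.2 RPKM at E12.5, from Mc2r, Akr1b7, Nr0b1 and Mrap.

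Over all sorted cells 12313 genes were tested on the mean RPKM (reads per kilobase of transcript, scaled to the library's reads) of each capture, as log2(mean + 1), so that differences of low genes are understated. At an adjusted p under 0.05 (limma, Benjamini-Hochberg over all genes tested), 31 genes rose, 0.252% of those tested, and 13 fell, 0.106%. The genes that rose with the largest differences were Serpina5, Cst12, Hsd17b1, Cyp17a1, Fshr, Tubb3, Defb36, Cyp11a1, Hsd17b3, Gsta2, Tnni3 and Jam2. Those that fell were led by Myl7, Hmga2, Cdc42ep2, Podxl, Fgf9 and Mc2r. The median difference of all genes was -0.06. The count depended on every capture: 3 genes rose and 7 fell without the first E16.5 capture, 2 and 3 without the second, 3 and 1 without the first E12.5 capture, and 5 and 3 without the second. Serpina5, Inha and Myl7 passed in all 4 of these fits (highest adjusted p 0.0486 for each), and Hmga2 in 3, missing with an adjusted p of 0.0647 without the first E12.5 capture. In sorted tissue a change in the share of a cell type and a change in RNA per cell of that type both move a capture's mean, so fewer cells of a type and less RNA per cell cannot be told apart there.

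**Figure D1:**
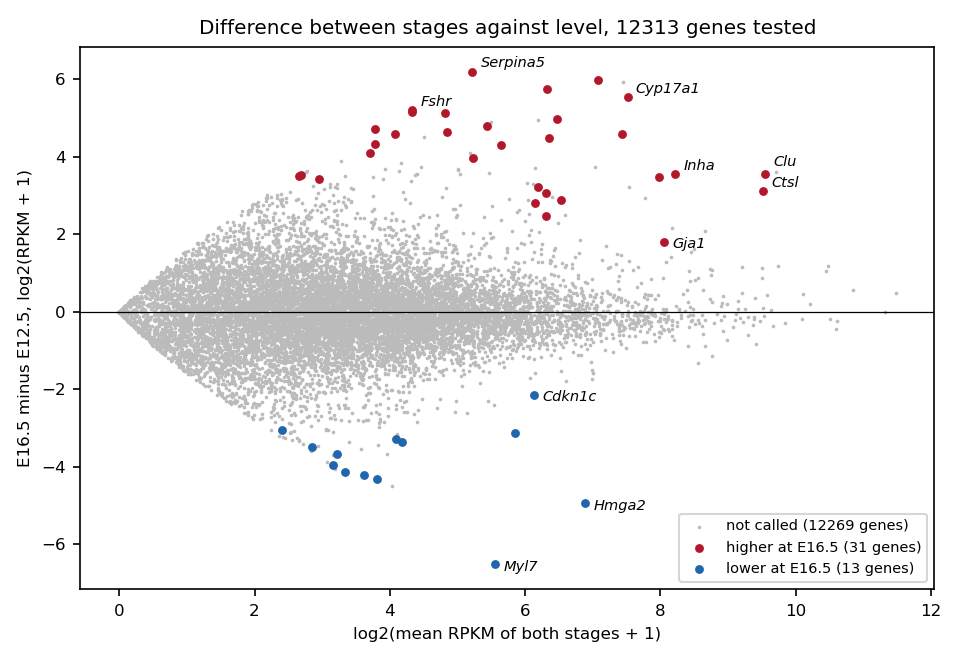
E16.5 minus E12.5 difference (y axis, log2(RPKM + 1)) against the mean level of both stages (x axis, log2) for 12313 genes. Each point is a gene, red for the 31 called higher and blue for the 13 called lower at E16.5; Inha and Clu lie at high level, and Myl7 and Hmga2 lie lowest.

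Among hormones and their receptors, Inha and Fshr rose. Inha (chr1:75507077-75510366, positions from GENCODE M21 on GRCm38 here and below), the alpha subunit of the inhibins by which Sertoli cells restrain pituitary FSH, had 586 and 507 RPKM in the E16.5 captures, against 42.9 and 48.1 RPKM in the E12.5 captures (log2 difference 3.56 ± 0.32, adjusted p 0.00124). Here and below, ± gives the SE of the difference between 2 and 2 captures. Its spread was pooled by limma over the 9 captures of 5 stages and drawn towards that of other genes. Inha was at 1 RPKM or more in 23 of 31 and 19 of 34 cells at E16.5, against 9 of 30 and 15 of 37 cells at E12.5. Both E16.5 captures lay about an order of magnitude above both E12.5 captures, while the share of positive cells differed less. The beta subunits that pair with it did not pass: Inhbb had 31.3 and 28.5 RPKM at E16.5, against 8.35 and 5.65 RPKM at E12.5 (adjusted p 0.194). Inhba had 40.01 and 40.9 RPKM at E16.5, against 5.42 and 12.6 RPKM at E12.5 (adjusted p 0.124). Fshr (chr17:88984952-89200675), the receptor for FSH, had 50.7 and 25.9 RPKM in the E16.5 captures, against 0 and 0.0113 RPKM in the E12.5 captures (log2 difference 5.21 ± 0.64, adjusted p 0.00644). No E12.5 cell reached 1 RPKM, against 11 of 31 and 6 of 34 cells at E16.5. A count of 0 in 30 and in 37 cells allows shares of up to 10% and 8.11%. Of the 19 tested hormone subunits and receptors, 2 rose (Inha and Fshr) and none fell, with a median difference of 0.79.

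The Fshr promoter is shown because Fshr was near 0 at E12.5 and because its E-box, the letters CACGTG bound by USF factors, is known as the element that drives Fshr in Sertoli and granulosa cells. It is taken from RefSeq on GRCm38.p6, chr17:89200626-89200925, minus strand, from 250 bases before to 50 bases after the gene's start, and the E-box in capitals begins 61 bases before the start.
Fshr: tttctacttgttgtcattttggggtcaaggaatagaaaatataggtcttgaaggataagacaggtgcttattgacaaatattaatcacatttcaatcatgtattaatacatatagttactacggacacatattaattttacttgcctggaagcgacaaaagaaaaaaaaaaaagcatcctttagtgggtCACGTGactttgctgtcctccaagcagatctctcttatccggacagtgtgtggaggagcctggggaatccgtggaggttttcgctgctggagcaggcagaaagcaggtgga
The same letters are their own reverse complement. They were found in a promoter of 3 of the 23 genes that rose and have an entry (Fshr, Ctsl and Gdf15). Of the 8 genes that fell and have an entry, 1 had them (Dnph1). Among 9240 tested genes with an entry 11.6% had them, and among all 27025 genes with an entry 8.09%. A gene was counted once over all its promoters of this length.

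Among 25 tested genes of Sertoli differentiation, 3 rose (Serpina5, Cst12 and Clu) and 1 fell (Fgf9). The median difference of the list was 2.02, and 17 of its members had both E16.5 captures above both E12.5 captures, which 18.3% of all tested genes had. List members were chosen with earlier results of these data known. Medians and shares of lists, here and below, are therefore partly fixed by that choice and are a description. Serpina5 (chr12:104101113-104106137), a serine protease inhibitor of the secreted protein C inhibitor kind, had 73.2 and 71.98 RPKM in the E16.5 captures, against 0 and 0.00653 RPKM in the E12.5 captures (log2 difference 6.20 ± 0.64, adjusted p 0.00228). It reached 1 RPKM in 11 of 31 and 11 of 34 cells at E16.5, against 0 of 30 and 0 of 37 cells at E12.5. Cst12, a cystatin of Sertoli cells, had 276 and 256 RPKM in the E16.5 captures, against 4.30 and 2.35 RPKM in the E12.5 captures (log2 difference 5.99 ± 0.81, adjusted p 0.0114). Clu, the secreted chaperone clusterin, was already present at E12.5 and had 1574 and 1179.8 RPKM in the E16.5 captures, against 135 and 98.96 RPKM in the E12.5 captures (log2 difference 3.55 ± 0.49, adjusted p 0.0115). All 3 genes were near 0 or low at E12.5 relative to E16.5, with no overlap between captures. Cst12 and the beta-defensin Defb36 (log2 difference 5.14 ± 0.91, adjusted p 0.0359) belong to families of near copies whose reads the counting could have split, so their levels are uncertain.

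Other Sertoli genes had higher values at E16.5 without passing. Defb19 had 1755 and 1283 RPKM in the E16.5 captures, against 57.7 and 258 RPKM in the E12.5 captures (adjusted p 0.0915). Ptgds, the prostaglandin D synthase, had 363 and 397 RPKM at E16.5, against 30 and 77.9 RPKM at E12.5 (adjusted p 0.1). Rhox8, a homeobox gene, had 142 and 116.97 RPKM at E16.5, against 5.25 and 14.5 RPKM at E12.5 (adjusted p 0.0674). Amh, the anti-Müllerian hormone, had 37.7 and 33.1 RPKM at E16.5, against 16.4 and 4.93 RPKM at E12.5 (adjusted p 0.353). Dhh, the hedgehog ligand of Sertoli cells, had 26.5 and 22.7 RPKM at E16.5, against 2.16 and 8.89 RPKM at E12.5 (adjusted p 0.239). In these 5 genes every E16.5 capture was above every E12.5 capture. Sox9 overlapped between the stages, with 103.7 and 61.7 RPKM at E16.5, against 49.7 and 77.1 RPKM at E12.5 (adjusted p 0.819). Cst9 also overlapped, with 88.1 and 1591 RPKM at E16.5, against 515 and 246 RPKM at E12.5. Fgf9, which sustains Sox9 in the early supporting cell and was the list's fallen member, had 0.0304 and 0.00377 RPKM in the E16.5 captures, against 24.9 and 11.3 RPKM in the E12.5 captures (log2 difference -4.14 ± 0.72, adjusted p 0.0355). It was at 1 RPKM or more in 0 of 31 and 0 of 34 cells at E16.5, against 9 of 30 and 10 of 37 cells at E12.5. Of the 28 tested paracrine growth factors (median 0.38), the other 27 did not pass. Fgf10 had 0.0131 and 0.532 RPKM at E16.5, against 10.8 and 8.56 RPKM at E12.5 (adjusted p 0.0737), and Pdgfc had 3.90 and 0.0761 RPKM at E16.5, against 29.9 and 18.99 RPKM at E12.5 (adjusted p 0.0594).

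**Figure D2:**
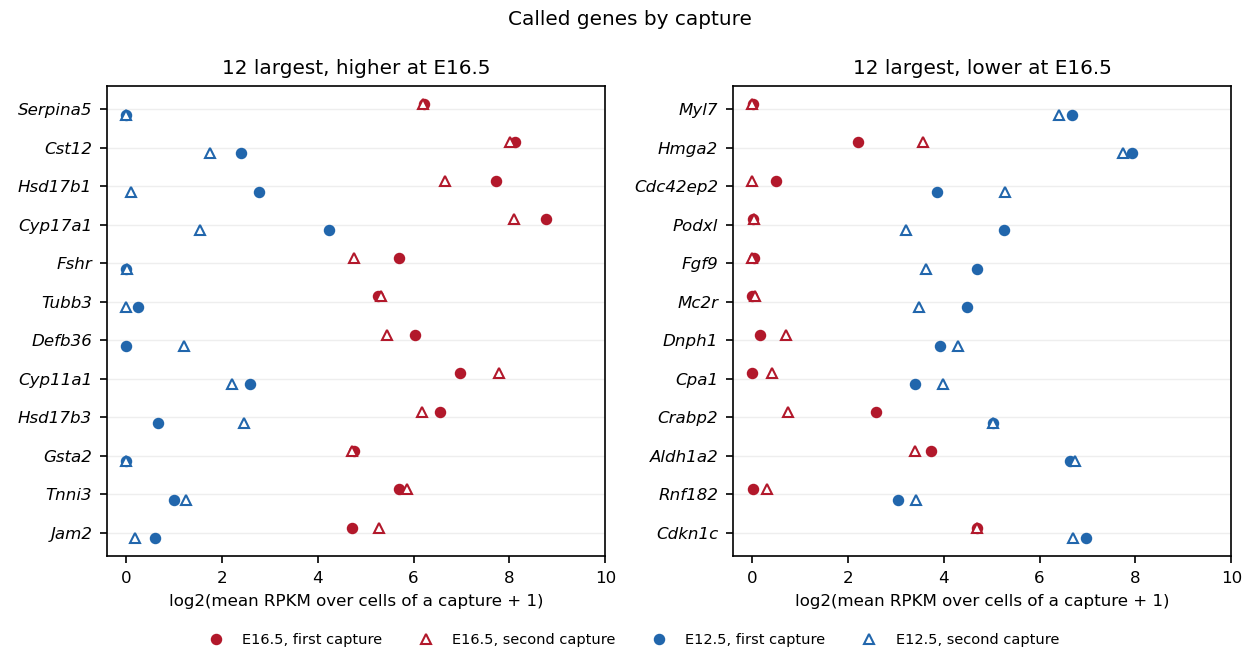
Mean RPKM of each capture (x axis, log2(mean + 1)) for the 12 genes with the largest differences each way among those called. Red marks are the 2 E16.5 captures and blue marks the 2 E12.5 captures. Genes were picked only where the stages did not overlap. Serpina5, Fshr and Gsta2 sit at or near 0 at E12.5 as Myl7, Podxl and Fgf9 do at E16.5.

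Among 16 tested genes of steroid hormone synthesis, 4 rose (Hsd17b1, Cyp17a1, Cyp11a1 and Hsd17b3) and none fell, with a median difference of 1.60. The cells that carried them differed. Cyp11a1 (chr9:58006411-58027023), which cuts the side chain of cholesterol, had 124 and 220.2 RPKM in the E16.5 captures, against 5.01 and 3.61 RPKM in the E12.5 captures (log2 difference 4.98 ± 0.61, adjusted p 0.00644). Cyp17a1 (chr19:46667165-46673172), which turns progestagens into androgens, had 434 and 274 RPKM in the E16.5 captures, against 17.8 and 1.92 RPKM in the E12.5 captures (log2 difference 5.54 ± 0.94, adjusted p 0.031). At E16.5 nearly all of this came from a single cell in each capture. The highest cell held 99.8% and 96.4% of the summed Cyp17a1 of the 2 E16.5 captures, against 99.3% and 64.8% in the E12.5 captures. For Cyp11a1 it held 99.6% and 97.9% of the sum at E16.5, against 97.5% and 49.2% at E12.5. Without the highest cell of each capture, Cyp17a1 averaged 1.02 and 10.1 RPKM at E16.5, against 0.122 and 0.696 RPKM at E12.5. Cyp11a1 averaged 0.476 and 4.83 RPKM at E16.5, against 0.127 and 1.89 RPKM at E12.5. Without the cells of the Leydig-like cluster (1 and 1 cells at E16.5, against 1 and 0 at E12.5), the differences were 1.39 for Cyp17a1 (adjusted p 0.70) and 0.36 for Cyp11a1 (adjusted p 0.92), and neither passed. Both genes were among the markers used for clustering, so smaller differences without this cluster were largely fixed by that choice. Cyp17a1 and Cyp11a1 were 2 of only 3 genes that rose, Cd177 being the third, in which the highest cell held over 50% of the sum in both E16.5 captures. Insl3, the Leydig peptide of testis descent, showed the same concentration, with 1 positive cell in the first E16.5 capture at 7321 RPKM, and did not pass (adjusted p 0.0635). Exons of Cyp11a1 overlap the predicted gene Gm17322, and the kits used do not mark strand.

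Hsd17b3 and Hsd17b1, which reduce androstenedione to testosterone and estrone to estradiol, were spread over many cells instead. Hsd17b3 (chr13:64058266-64089230) had 93.3 and 70.8 RPKM in the E16.5 captures, against 0.599 and 4.49 RPKM in the E12.5 captures (log2 difference 4.80 ± 0.68, adjusted p 0.0145). At 1 RPKM or more it was in 21 of 31 and 17 of 34 cells at E16.5, against 3 of 30 and 4 of 37 cells at E12.5. Of the cells with Hsd17b3, 19 of 21 and 15 of 17 at E16.5 also had Amh, and 4 and 3 had Cyp17a1. Hsd17b1 had 209.9 and 99.3 RPKM in the E16.5 captures, against 5.87 and 0.0746 RPKM in the E12.5 captures (log2 difference 5.74 ± 0.91, adjusted p 0.0217). It was found in 19 of 31 and 12 of 34 cells at E16.5, against 1 of 30 and 2 of 37 cells at E12.5. In mouse fetal testis Hsd17b3 is known as a Sertoli enzyme that finishes the androgen made by Leydig cells. At E12.5, 2 of 3 and 2 of 4 cells with Hsd17b3 had Amh. Among cells with Amh at 10 RPKM or more, Hsd17b3 was found in 16 of 16 and 9 of 10 such cells at E16.5, against 2 of 5 and 1 of 7 at E12.5. The other markers found in cells with Amh differed between captures, as given below. Other enzymes did not pass. Star, which brings cholesterol into mitochondria, had 28.4 and 64.99 RPKM at E16.5, against 9.37 and 2.03 RPKM at E12.5 (adjusted p 0.0978). Hsd3b1, a dehydrogenase of the same pathway, had 141 and 189 RPKM at E16.5, against 64.3 and 49.2 RPKM at E12.5 (adjusted p 0.283).

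None of 26 tested genes of cholesterol synthesis and uptake passed. Their median difference was 0.90, 23 of 26 were above 0, and 16 of 26 had both E16.5 captures above both E12.5 captures and 0 had both below, against 18.3% and 21.7% of all tested genes. Mvd, Fdps and Msmo1, enzymes of the sterol pathway, came nearest. Mvd had 43.4 and 29.8 RPKM at E16.5, against 4.85 and 0.748 RPKM at E12.5 (adjusted p 0.0594). Fdps had 100.1 and 119.97 RPKM at E16.5, against 25.9 and 23.3 RPKM at E12.5 (adjusted p 0.0635). Msmo1 had 51.3 and 51.9 RPKM at E16.5, against 5.31 and 10.2 RPKM at E12.5 (adjusted p 0.092). Unlike Cyp17a1, Msmo1 was widespread, in 22 of 31 and 19 of 34 cells at E16.5, against 5 of 30 and 15 of 37 cells at E12.5.

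**Figure D3:**
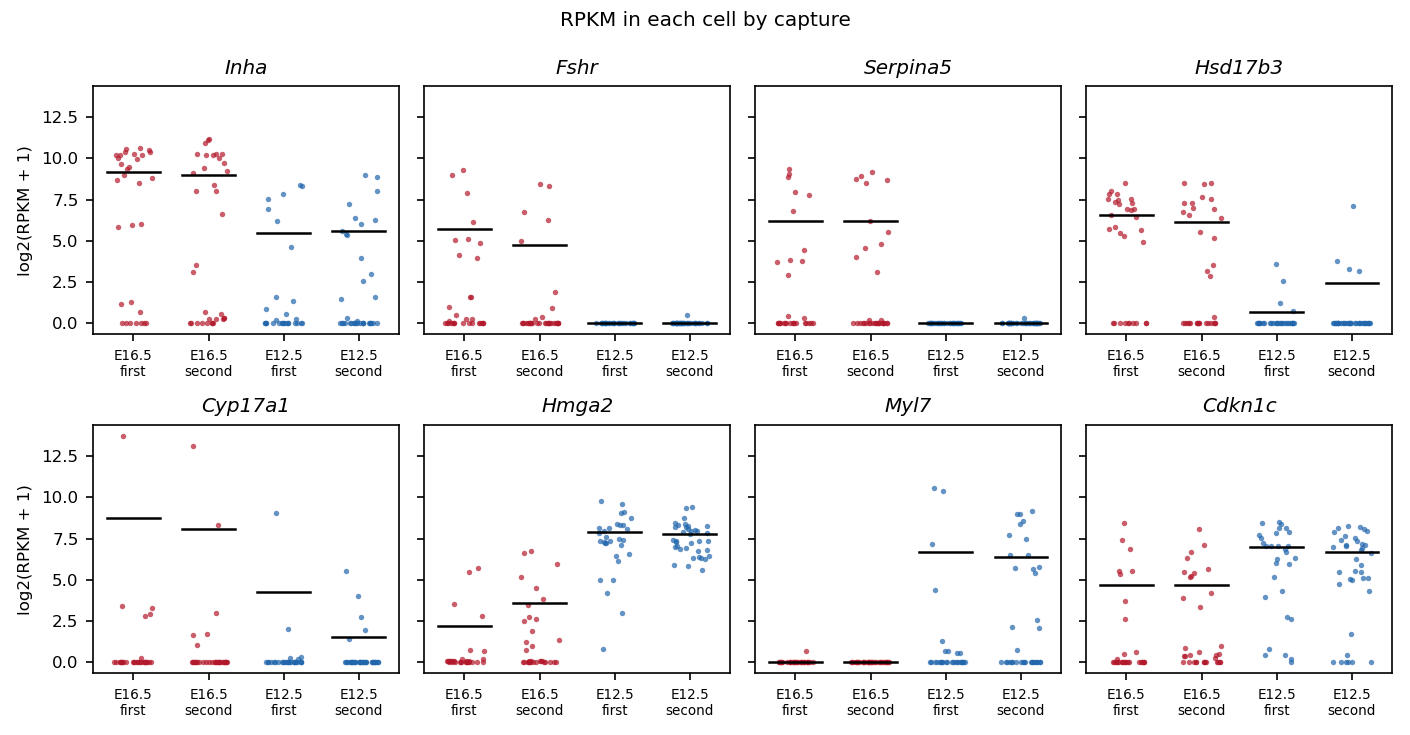
RPKM in each cell (y axis, log2(RPKM + 1)) by capture for 8 called genes. Each point is a cell and the bar is log2(mean RPKM + 1) of the capture; Inha, Hsd17b3 and Hmga2 differ over many cells, while the Cyp17a1 bars at E16.5 are set by 1 cell in each capture, with 13412 and 8982 RPKM.

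Hmga2 (chr10:120361275-120476469), a chromatin protein of fetal proliferating cells that is repressed by the let-7 microRNAs, was found in more E12.5 cells than any other gene that fell. It had 3.63 and 10.8 RPKM in the E16.5 captures, against 242 and 214 RPKM in the E12.5 captures (log2 difference -4.95 ± 0.53, adjusted p 0.00284). It was at 1 RPKM or more in 4 of 31 and 13 of 34 cells at E16.5, against 29 of 30 and 37 of 37 cells at E12.5. Cells that still had it at E16.5 held it at a mean of 27.7 and 28.1 RPKM, against 250.01 and 214 RPKM in positive E12.5 cells, so both the share of cells and the level in them were lower. In the other stages it had 326 RPKM at E10.5, 298 and 203 RPKM at E11.5, and 66.4 and 201 RPKM at E13.5, with the E10.5 and E13.5 libraries labelled for 25 M reads. An exon of Hmga2 overlaps the transcript 1700006J14Rik, so the 2 cannot be told apart without strand.

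The let-7 seed and its matches in Hmga2 are printed because Hmga2 is a textbook let-7 target. The mature let-7a of mouse (RefSeq, GRCm38.p6) is shown with its seed, bases 2 to 8, in capitals. Below it stand the 4 places in the 3′ untranslated region of Hmga2 (3014 bases in the GENCODE M21 transcript with the longest one, chromosome 10, minus strand) with the letters CTACCTC, the complement of that seed, in capitals, numbered from the base after the stop codon.
let-7a-5p: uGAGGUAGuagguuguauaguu
Hmga2 site at base 58: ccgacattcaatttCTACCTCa
Hmga2 site at base 1295: cccactcctcaataCTACCTCt
Hmga2 site at base 1733: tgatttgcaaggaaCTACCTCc
Hmga2 site at base 2591: atcaaaacacactaCTACCTCt
All 8 let-7 entries from a to i share the seed. The letters CTACCTC occurred at least once in the 3′ untranslated region of 10.4% of 11712 tested genes, and 4 or more times in 9 of them, Hmga2 included. Mature let-7 is not read by these poly-A libraries.

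Of 12 tested genes of the Lin28, let-7 and fetal growth list, Hmga2 was the only 1 that fell and none rose. The list's median difference was -0.62, and 7 of 12 had both E16.5 captures below both E12.5 captures, against 21.7% of all tested genes. Igf2bp1, an mRNA-binding protein and another let-7 target, had 0.718 and 1.56 RPKM at E16.5, against 4.68 and 6.94 RPKM at E12.5 (adjusted p 0.277). It reached 1 RPKM in 1 of 31 and 3 of 34 cells at E16.5, against 12 of 30 and 22 of 37 cells at E12.5. Hmga1 had 3.56 and 1.05 RPKM at E16.5, against 15.2 and 6.99 RPKM at E12.5 (adjusted p 0.265). Igf2bp3 had 33.8 and 22.99 RPKM at E16.5, against 36.3 and 34.3 RPKM at E12.5 (adjusted p 0.796). Lin28b, the let-7 inhibitor, did not reach 1 RPKM in any cell of either stage. Cdkn1c (chr7:143458339-143461050), an imprinted inhibitor of the cell cycle, had 24.9 and 24.7 RPKM in the E16.5 captures, against 124 and 102.4 RPKM in the E12.5 captures (log2 difference -2.14 ± 0.36, adjusted p 0.0308). At 1 RPKM or more it was in 8 of 31 and 12 of 34 cells at E16.5, against 25 of 30 and 30 of 37 cells at E12.5. It overlaps Gm44732. The other 18 tested imprinted growth genes did not pass (median of the list -0.24). Peg3 had 66.8 and 60.4 RPKM at E16.5, against 184 and 197 RPKM at E12.5 (adjusted p 0.0736). Igf2 had 25.3 and 10.7 RPKM at E16.5, against 55.4 and 33.3 RPKM at E12.5 (adjusted p 0.24). Neither gene overlapped between stages.

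Genes of the coelomic epithelium had the lowest median of the lists, -2.70, with 2 of 14 tested members called lower (Podxl and Aldh1a2) and 12 of 14 with both E16.5 captures below both E12.5 captures, against 21.7% of all tested genes. Podxl (chr6:31519488-31563981), a sialomucin of epithelial and podocyte surfaces, had 0.0104 and 0.0224 RPKM in the E16.5 captures, against 37.03 and 8.25 RPKM in the E12.5 captures (log2 difference -4.21 ± 0.66, adjusted p 0.0217). It was found in 0 of 31 and 0 of 34 cells at E16.5, against 14 of 30 and 14 of 37 cells at E12.5. Aldh1a2 (chr9:71215789-71296243), which makes retinoic acid, had 12.3 and 9.52 RPKM in the E16.5 captures, against 98.8 and 106.3 RPKM in the E12.5 captures (log2 difference -3.13 ± 0.38, adjusted p 0.00644). Upk3b, a uroplakin that marks mesothelium, had 0 and 0.00549 RPKM in the E16.5 captures, against 20.4 and 12.1 RPKM in the E12.5 captures, and did not pass (adjusted p 0.0568). It reached 1 RPKM in 0 of 31 and 0 of 34 cells at E16.5, against 10 of 30 and 6 of 37 cells at E12.5. Muc16 and Upk1b were listed at 0 in both E16.5 captures, against 20.46 and 9.03 RPKM for Muc16 and 8.47 and 53.3 RPKM for Upk1b at E12.5. Krt8 alone in the list had a positive difference, with 28.4 and 15.2 RPKM at E16.5, against 1.66 and 7.98 RPKM at E12.5 (adjusted p 0.201). Emx2, a transcription factor of the gonadal epithelium and early gonad, was in 0 of 31 and 1 of 34 cells at E16.5, against 18 of 30 and 22 of 37 cells at E12.5.

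Of 14 tested retinoic acid genes, 2 fell and none rose (median 0.17). Beside Aldh1a2 this was Crabp2, which carries retinoic acid to its receptors, with 4.98 and 0.675 RPKM in the E16.5 captures, against 31.5 and 31.5 RPKM in the E12.5 captures (log2 difference -3.36 ± 0.60, adjusted p 0.0379). Aldh1a1, another retinaldehyde dehydrogenase, had 469 and 444 RPKM at E16.5, against 157 and 304 RPKM at E12.5, without overlap but with an adjusted p of 0.469. None of 22 Wnt genes passed (median -0.81). Rspo1, an R-spondin that boosts Wnt signalling and is needed for ovarian fate, had 0.181 and 0.0639 RPKM at E16.5, against 12.9 and 8.0001 RPKM at E12.5 (adjusted p 0.0545). Rspo3 had 0.173 and 0 RPKM at E16.5, against 20.8 and 5.59 RPKM at E12.5 (adjusted p 0.0997). Both were seen in at most 1 cell per E16.5 capture.

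Of the 13 genes that fell, Myl7 (chr11:5896637-5898782) had the largest difference. It encodes the atrial light chain of myosin, best known from heart muscle. It had 0.0188 and 0 RPKM in the E16.5 captures, against 101.2 and 83.2 RPKM in the E12.5 captures (log2 difference -6.52 ± 0.61, adjusted p 0.00124). At 1 RPKM or more it was in 0 of 31 and 0 of 34 cells at E16.5, against 5 of 30 and 16 of 37 cells at E12.5. No E16.5 cell reached 1 RPKM, which allows shares of up to 9.68% and 8.82%. Mc2r, the ACTH receptor of the adrenal cortex, which fetal Leydig cells also carry, had 0 and 0.0475 RPKM in the E16.5 captures, against 21.6 and 10.2 RPKM in the E12.5 captures (log2 difference -3.95 ± 0.72, adjusted p 0.0421), and 86.4% and 65.8% of its E12.5 sums lay in 1 cell. The other 3 tested genes of the adrenal list (median -1.11) did not pass. Among them Akr1b7, an aldo-keto reductase, had 13.2 and 10.1 RPKM at E16.5, against 0.00700 and 0.00678 RPKM at E12.5 (adjusted p 0.131). Cells with Akr1b7 at 1 RPKM or more were 5 of 31 and 6 of 34 cells at E16.5, against 0 of 30 and 0 of 37 cells at E12.5. Nr0b1, a nuclear receptor that represses Nr5a1 targets, had 0.613 and 0.120 RPKM at E16.5, against 7.04 and 11.1 RPKM at E12.5 (adjusted p 0.143). Cdc42ep2, an effector of the small GTPase Cdc42, had 0.422 and 0 RPKM in the E16.5 captures, against 13.6 and 37.9 RPKM in the E12.5 captures (log2 difference -4.32 ± 0.69, adjusted p 0.0225), from 3 and 7 positive E12.5 cells. Dnph1, a nucleotide hydrolase, had 0.126 and 0.630 RPKM at E16.5, against 14.1 and 18.6 RPKM at E12.5 (adjusted p 0.0217). Cpa1, a carboxypeptidase of the pancreas, had 0 and 0.334 RPKM at E16.5, against 9.53 and 14.9 RPKM at E12.5 (adjusted p 0.0355). Rnf182, a ubiquitin ligase, had 0.0217 and 0.236 RPKM at E16.5, against 7.21 and 9.73 RPKM at E12.5 (adjusted p 0.0492). These 3 genes also fell, with at most 9 positive cells in an E12.5 capture. The highest cell held 47.7% and 58.3% of the summed Dnph1 in the E12.5 captures. It held 66.4% and 34.7% for Cpa1, 81.3% and 29.2% for Rnf182, and 87.9% and 47.5% for Cdc42ep2. The remaining fallen gene was the predicted gene Gm8113, with 1.83 and 2.59 RPKM at E16.5, against 32.02 and 27.7 RPKM at E12.5.

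**Figure D4:**
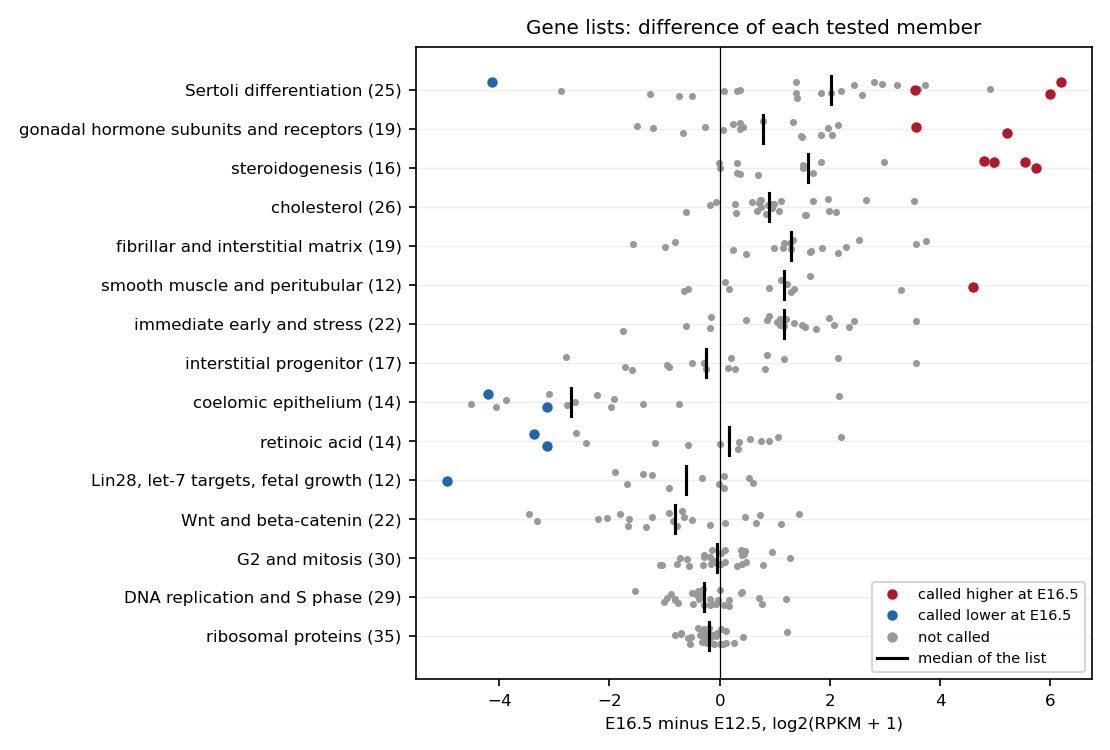
E16.5 minus E12.5 difference (x axis, log2(RPKM + 1)) of each tested member of 15 gene lists, with the number tested in brackets. Red points were called higher and blue points lower at E16.5, and the black tick is the list's median, from 2.02 for Sertoli differentiation to -2.70 for the coelomic epithelium.

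Genes of cell contacts and of the cell surface were among those that rose. Of 14 tested epithelial junction genes 2 rose and none fell (median 0.77). Gja1, the gap junction protein connexin 43 that links Sertoli cells, had 472 and 354 RPKM in the E16.5 captures, against 115.8 and 116.3 RPKM in the E12.5 captures (log2 difference 1.81 ± 0.30, adjusted p 0.0271) and was the smallest called difference. Jam2, a tight junction adhesion molecule, had 25.3 and 37.6 RPKM in the E16.5 captures, against 0.510 and 0.145 RPKM in the E12.5 captures (log2 difference 4.60 ± 0.66, adjusted p 0.0147). Sdc4, a heparan sulfate proteoglycan, had 558 and 369.6 RPKM in the E16.5 captures, against 48.2 and 33.2 RPKM in the E12.5 captures (log2 difference 3.47 ± 0.48, adjusted p 0.0115). Among the enzymes, Ctsl, the lysosomal protease cathepsin L secreted by Sertoli cells, had 1429.5 and 1200.5 RPKM in the E16.5 captures, against 131 and 172 RPKM in the E12.5 captures (log2 difference 3.12 ± 0.39, adjusted p 0.00719). Prss35, a protease-like secreted protein, had 157 and 123 RPKM in the E16.5 captures, against 20.2 and 12.2 RPKM in the E12.5 captures (log2 difference 3.07 ± 0.44, adjusted p 0.0147). Gja1, Sdc4 and Ctsl were present in most cells at both stages, Ctsl in 31 of 31 and 32 of 34 cells at E16.5, against 23 of 30 and 30 of 37 cells at E12.5. Exons of Ctsl overlap Gm47123 and Gm49230, so without strand its reads cannot be assigned to Ctsl alone.

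Gsta2, a glutathione transferase of a family with near copies, was the only 1 of 30 tested glutathione and redox genes that passed (median 0.18), with 25.9 and 25.2 RPKM in the E16.5 captures, against 0 and 0.00512 RPKM in the E12.5 captures (log2 difference 4.73 ± 0.62, adjusted p 0.00912). Ifi27, an interferon-induced mitochondrial protein, was the only 1 of 12 tested antigen presentation and interferon genes that passed (median 1.23), with 182 and 142 RPKM in the E16.5 captures, against 20.4 and 21.4 RPKM in the E12.5 captures (log2 difference 2.88 ± 0.54, adjusted p 0.0492). Tnni3, the cardiac troponin I, had 51.2 and 57.1 RPKM in the E16.5 captures, against 1.004 and 1.40 RPKM in the E12.5 captures (log2 difference 4.65 ± 0.70, adjusted p 0.0191) and overlaps an exon of Dnaaf3. Tubb3, a tubulin best known from neurons, had 36.98 and 38.8 RPKM in the E16.5 captures, against 0.190 and 0 RPKM in the E12.5 captures (log2 difference 5.15 ± 0.83, adjusted p 0.0246). The 12 other genes that rose were Kazald1, S1pr1, Cited1, Fam19a5, Ccl17, Gdf15, Cd177, Slc13a2, Chchd10, Tmem184a, Gm26938 and, of the lists, Acta2. Cited1, a transcriptional coactivator, had 120.1 and 69.2 RPKM in the E16.5 captures, against 3.15 and 4.34 RPKM in the E12.5 captures (log2 difference 4.29 ± 0.75, adjusted p 0.0355). S1pr1, a sphingosine phosphate receptor, had 27.6 and 22.5 RPKM in the E16.5 captures, against 0 and 0.652 RPKM in the E12.5 captures (log2 difference 4.34 ± 0.76, adjusted p 0.0355). Tmem184a and Gm26938 overlap each other and are 1 signal without strand. Exons of Chchd10 overlap Gm867 and Mmp11, and exons of Slc13a2 overlap Slc13a2os, so their reads cannot be assigned to them alone. Slc13a2 was listed at 0 in both E12.5 captures.

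In the interstitium, Acta2, the smooth muscle actin of peritubular cells, was the only 1 of 12 tested smooth muscle genes that passed (median 1.17), with 539 and 126 RPKM in the E16.5 captures, against 5.77 and 16.6 RPKM in the E12.5 captures (log2 difference 4.59 ± 0.79, adjusted p 0.0352). It was found in 13 of 31 and 14 of 34 cells at E16.5, against 3 of 30 and 9 of 37 cells at E12.5. Its partner Tagln had 206 and 44.7 RPKM at E16.5, against 4.16 and 18.2 RPKM at E12.5 (adjusted p 0.119). The first E16.5 capture was several times higher than the second in both genes. None of 19 tested genes of the fibrillar and interstitial matrix passed. Their median difference was 1.30 and 13 of 19 had both E16.5 captures above both E12.5 captures, against 18.3% of all tested genes. Dcn, the proteoglycan decorin, had 419.9 and 523 RPKM at E16.5, against 113.1 and 97.2 RPKM at E12.5 (adjusted p 0.0594). Mfap4, a microfibril protein, had 153 and 139 RPKM at E16.5, against 42.6 and 19.3 RPKM at E12.5 (adjusted p 0.0568). Ogn, osteoglycin, had 71.7 and 9.95 RPKM at E16.5, against 1.87 and 0.566 RPKM at E12.5 (adjusted p 0.0996). The 17 tested interstitial progenitor genes had a median of -0.24 and none passed. Tcf21 had 192 and 268 RPKM at E16.5, against 172 and 245 RPKM at E12.5. Nr2f2 had 85.99 and 134 RPKM at E16.5, against 159 and 148 RPKM at E12.5. Igf1 missed the threshold with 83.6 and 101.2 RPKM at E16.5, against 5.99 and 21.3 RPKM at E12.5 (adjusted p 0.0546).

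Immediate early genes, which digestion and sorting can also induce, had a median difference of 1.16, and 18 of 22 had both E16.5 captures above both E12.5 captures, against 18.3% of all tested genes, with none passing. Fos had 584 and 722 RPKM at E16.5, against 159 and 147 RPKM at E12.5 (adjusted p 0.104). Fosb had 33.8 and 42.1 RPKM at E16.5, against 2.75 and 1.90 RPKM at E12.5 (adjusted p 0.154). Nr4a1 had 80.5 and 132 RPKM at E16.5, against 23.5 and 15.98 RPKM at E12.5 (adjusted p 0.0546). Their part in the other differences was not tested. None of 30 tested genes of G2 and mitosis (median -0.06) and of 29 of DNA replication (median -0.28) passed. Their summed levels were 864 and 917 RPKM at E16.5, against 602 and 1236 RPKM at E12.5 for mitosis. They were 904 and 936 RPKM at E16.5, against 852 and 1439.8 RPKM at E12.5 for replication. In both lists the E16.5 captures lay between the 2 E12.5 captures. None passed either among the tested genes of the cord basement membrane (17 genes, median 0.01), IGF and insulin (13, -0.05), hedgehog (12, 0.25), Notch (10, 0.67), ovarian supporting cells (10, -0.59), genital ridge factors (16, -0.38), Hox genes (25, -0.52), glycolysis (23, -0.28), oxidative phosphorylation (33, -0.04), ribosomal proteins (35, -0.20) and Y-linked genes (5, 0.31). Of the cell cycle inhibitors (13, median 0.68) only Cdkn1c passed, of the iron and lipid carriers (16, 0.27) only Clu, and of the complement and protease inhibitors (18, 0.46) Serpina5 and Cst12.

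Among markers of cells that the sort should lack, none of the 8 germ cell, 10 endothelial, 2 macrophage, 2 erythroid and 5 mesonephric genes tested passed (medians 0.04, 1.06, 0.10, 0.66 and -0.80). The germ cell list summed to 3.004 and 32.8 RPKM at E16.5, against 17.3 and 113.7 RPKM at E12.5, with Dppa3 at 0 in every kept cell of the other 3 captures and at 47.3 RPKM in the second E12.5 capture, from 13 cells. The endothelial list summed to 14.3 and 74.4 RPKM at E16.5, against 21.4 and 9.68 RPKM at E12.5. The macrophage and blood list summed to 9.76 and 7.95 RPKM at E16.5, against 2.11 and 8.999 RPKM at E12.5. The erythroid list, of which 3 of 12 genes were found among the values, summed to 23.8 and 6.04 RPKM at E16.5, against 0.337 and 13.52 RPKM at E12.5. The mesonephric list summed to 2.03 and 0.00751 RPKM at E16.5, against 18.1 and 7.27 RPKM at E12.5. Of the 11 macrophage and blood genes found among the values, Lyz2, Tyrobp, Cx3cr1 and Cd14 were at 0 in all 4 captures. Csf1r, the macrophage growth factor receptor, was not: it had 5.86 and 6.18 RPKM at E16.5, against 2.04 and 4.83 RPKM at E12.5 (adjusted p 0.671). Cells with Csf1r at 1 RPKM or more were 8 of 31 and 8 of 34 cells at E16.5, against 4 of 30 and 10 of 37 cells at E12.5. Exons of Csf1r overlap Hmgxb3, so without strand these reads cannot be assigned to Csf1r alone. The complement genes C1qa and C1qb reached 1 RPKM in at most 1 cell of a capture. The part of these cells in the other differences was not tested. Without the germ-marker-led cluster 36 genes rose and 19 fell, and 42 of the 44 calls were kept. The erythroid enzyme Alas2 had 23.8 and 6.04 RPKM at E16.5, against 0.337 and 0.486 RPKM at E12.5 (adjusted p 0.118). Exons of Alas2 overlap Apex2, so its reads carry the same limit as those of Csf1r.

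Cells were also split into classes by clustering them on the marker genes. The Sertoli-like cluster, with Defb19, Ptgds and Cst9 among its leading genes, held 16 of 31 and 15 of 34 cells at E16.5, against 4 of 30 and 4 of 37 at E12.5. As the markers that define the cluster differed between stages, these sizes are no measure of how many Sertoli cells there were. All other cells, without clusters led by germ, endothelial or mesonephric markers, were 14 and 18 at E16.5, against 26 and 20 at E12.5. Different clusters held most of them: cluster 5, led by Dcn and Acta2, at E16.5, and clusters 7 and 8, which stay unnamed, at E12.5. The genes in the plot by class were chosen for their difference over all of these cells, so their direction within a class is largely fixed by that choice, and their values by class are a description.

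**Figure D5:**
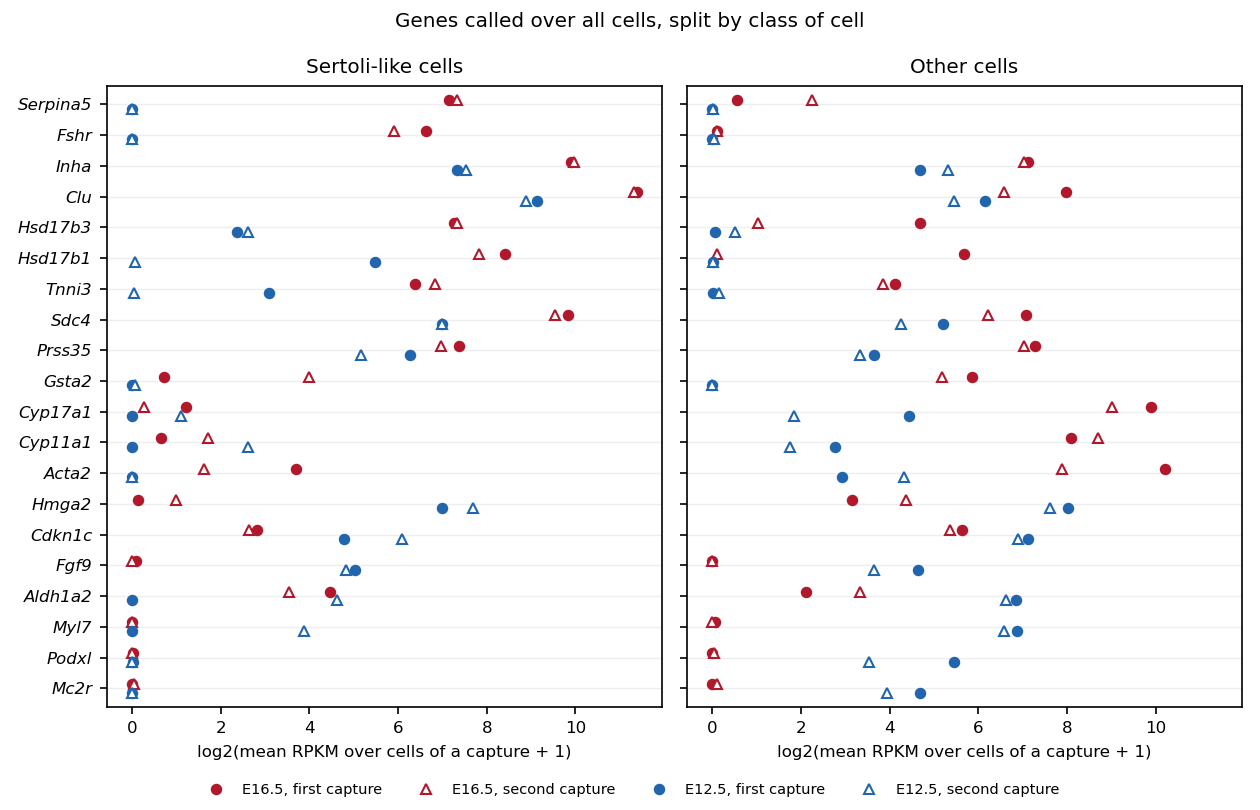
Mean RPKM of each capture (x axis, log2(mean + 1)) over Sertoli-like cells (left) and over the other cells (right) for 20 genes called over all cells. Red marks are E16.5 and blue marks E12.5 captures. The stages lie apart for Inha, Hmga2 and Cdkn1c in both classes, and most clearly for Fshr in Sertoli-like cells and Myl7 in the other cells. None of these genes passed within Sertoli-like cells, and of them only Hmga2 and Myl7 passed within the other cells. Fshr, a clustering marker, got no test.

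Within Sertoli-like cells Inha had 962 and 994 RPKM at E16.5, against 159.7 and 184 RPKM at E12.5. Within the other cells it had 139 and 129.9 RPKM at E16.5, against 24.9 and 38.6 RPKM at E12.5. Fshr had 98.1 and 58.7 RPKM at E16.5, against 0 and 0 RPKM at E12.5 in Sertoli-like cells. In the other cells it had 0.0790 and 0.0735 RPKM at E16.5, against 0 and 0.0210 RPKM at E12.5. Fshr was among the markers used for clustering and got no test there. Clu had 2662 and 2559.5 RPKM at E16.5, against 559 and 468 RPKM at E12.5 in Sertoli-like cells. Hmga2 had 0.0968 and 0.983 RPKM at E16.5, against 127 and 205 RPKM at E12.5 in Sertoli-like cells. It had 7.93 and 19.6 RPKM at E16.5, against 259 and 196 RPKM at E12.5 in the other cells. In cells with Amh at 10 RPKM or more, a choice that does not use the clusters, Hmga2 was found in 0 of 16 and 2 of 10 such cells at E16.5, against 5 of 5 and 7 of 7 at E12.5. Serpina5 was found in 10 of 16 and 5 of 10 such cells at E16.5, against 0 of 5 and 0 of 7 at E12.5. Fshr was in 9 of 16 and 3 of 10 such cells at E16.5, against 0 of 5 and 0 of 7 at E12.5. Inha was in 16 of 16 and 10 of 10 such cells at E16.5, against 4 of 5 and 6 of 7 at E12.5. Among these cells Inha was already common at E12.5 and differed in level, with 867 and 1038 RPKM at E16.5, against 133 and 116.1 RPKM at E12.5. Cells with Amh need not be a matched class between captures. Of cells with Amh at 1 RPKM or more, 9 of 10 in the second E12.5 capture also had Pdgfra. The first E12.5 capture had 2 of 5, and the E16.5 captures had 4 of 19 and 3 of 16.

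The planned test within Sertoli-like cells needed 5 cells per capture, which no E12.5 capture had. With 4 cells as the minimum, chosen after the data were seen, none of 10277 genes passed in limma (0%), while 1072 had an unadjusted p under 0.05. Captures were simulated with normal noise on the log2 scale, and the changed genes were drawn from those of higher mean level. Recovery of low genes was therefore not measured. In these captures the fit within Sertoli-like cells recovered 1 of 50 genes changed by 4 log2 units and 12 of 50 changed by 6. Over all sorted cells, 41 and 47 of 50 were recovered. The lack of calls therefore does not show that no gene changed in Sertoli-like cells. With cells chosen by Amh instead, 2 genes rose and 1 fell. Without the first E12.5 capture 12 rose and 1 fell, and without the second 5 rose and none fell. Within the other cells 3 genes rose (0.025% of 12021) and 6 fell (0.0499%), 0.0749% in all. Those that rose were Itih5, Prss35 and Gsta2, and those that fell were Myl7, Pdgfc, Hs1bp3, Plac1, Hmga2 and Aldh1a2. Itih5, a hyaluronan-binding matrix protein that was not called over all cells, had 54.3 and 67.7 RPKM at E16.5, against 0.206 and 0.482 RPKM at E12.5 (log2 difference 5.53 ± 0.76, adjusted p 0.0275). Pdgfc, a ligand of Pdgfra, had 0 and 0.140 RPKM at E16.5, against 34.5 and 24.7 RPKM at E12.5 (log2 difference -4.82 ± 0.63, adjusted p 0.0256). Plac1, best known from the placenta, had 0.0118 and 0 RPKM at E16.5, against 25.7 and 17.9 RPKM at E12.5 (log2 difference -4.48 ± 0.66, adjusted p 0.0425). Hs1bp3 had 0.0217 and 0.0927 RPKM at E16.5, against 13.998 and 56.6 RPKM at E12.5 (log2 difference -4.80 ± 0.71, adjusted p 0.0425). The number of calls was 0 without the first and 0 without the second E12.5 capture, was 13 higher and 70 lower without the first E16.5 capture, and was 1 higher and 10 lower without the second. The difference between the 2 classes was tested on the captures with at least 4 Sertoli-like cells, and none of 11773 genes passed in limma, while 1225 had an unadjusted p under 0.05, so no gene's change was shown to differ between Sertoli-like and other cells.

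The shares of marker-positive cells (1 RPKM or more) were higher for some markers and lower for others at E16.5. With 2 captures a stage an exact two-sided permutation test cannot go below p = 0.333, so the shares are given as values, with intervals that cover counting error only. Amh was found in 61.3% (95% Wilson interval 43.8 to 76.3) and 47.1% (95% Wilson interval 31.5 to 63.3) of cells at E16.5, against 16.7% (95% Wilson interval 7.34 to 33.6) and 27.03% (95% Wilson interval 15.4 to 42.98) at E12.5. Emx2 was found in 0% (95% Wilson interval 0 to 11.03) and 2.94% (95% Wilson interval 0.521 to 14.9) of cells at E16.5, against 60% (95% Wilson interval 42.3 to 75.4) and 59.5% (95% Wilson interval 43.5 to 73.7) at E12.5. These 2 markers had no overlap between the stages, in opposite directions, and so both had the smallest possible exact permutation p of 0.333. Many other markers also had no overlap and this same p. Lack of overlap, here and below, therefore does not set a marker apart. Nr2f2, an interstitial nuclear receptor, was found in 19 of 31 and 28 of 34 cells at E16.5, against 28 of 30 and 37 of 37 cells at E12.5. Pdgfra was found in 14 of 31 and 19 of 34 cells at E16.5, against 20 of 30 and 34 of 37 cells at E12.5. Both shares were below in each E16.5 capture, while the mean levels of Pdgfra overlapped. Ptgds was found in 20 of 31 and 19 of 34 cells at E16.5, against 6 of 30 and 10 of 37 cells at E12.5. Defb19 was in 25 of 31 and 24 of 34 cells at E16.5, against 9 of 30 and 25 of 37 cells at E12.5. Dcn was in 18 of 31 and 22 of 34 cells at E16.5, against 10 of 30 and 16 of 37 cells at E12.5. All 3 shares were above in each E16.5 capture. Lhx9, a homeobox gene of the early gonad, was found in 10 of 31 and 15 of 34 cells at E16.5, against 13 of 30 and 32 of 37 cells at E12.5. Sox9 was in 23 of 31 and 22 of 34 cells at E16.5, against 16 of 30 and 34 of 37 cells at E12.5. Top2a, of dividing cells, was in 16 of 31 and 20 of 34 cells at E16.5, against 11 of 30 and 35 of 37 cells at E12.5. For these 3 markers the stages overlapped, with the second E12.5 capture at the highest share. Cyp17a1 was found in 5 of 31 and 6 of 34 cells at E16.5, against 2 of 30 and 5 of 37 cells at E12.5. Insl3 was in 1 of 31 and 4 of 34 cells at E16.5, against 2 of 30 and 0 of 37 cells at E12.5.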

How the data were processed

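The authors deposited RPKM per gene and cell (16459 genes, 400 cells). Per the labels' protocols, libraries were made with the SMARTer Ultra Low and Nextera XT kits, and GRCm38.p3 and mm10 are the builds listed, per the submitters' processing notes. Aligner and counter: not given in the sources used here. Whole reads could not be recovered from the RPKM values (about 69% of low values came out whole, within 0.05 of a read, up to 20 reads), so no count test was run. The implied depth was 1.19 to 5.31 M reads per cell, 67.7% of the values were 0, and depth limits what low genes can show.

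Cells with at least 3000 detected genes were kept and averaged per capture. Genes with a mean of at least 1 RPKM in 2 of the 9 captures of 5 stages were fitted as log2(mean + 1) with limma 3.58.1 (R 4.3.3; trend and robust), stage as the factor, with Benjamini-Hochberg adjustment and a threshold of 0.05. Cells were clustered on the marker genes (Ward, 8 clusters), and these genes were left out of the tests within classes. The planned minimum of 5 Sertoli-like cells per capture could not be met, and 4 was used. Gene lists, members and markers were chosen with earlier results of these data known. Named genes were the 12 largest differences each way among called genes that did not overlap between captures, had a stage mean of at least 5 RPKM and were not predicted models, plus up to 4 called members of each list, or up to 2 with the largest difference where none was called. Further genes were named after their values were seen. Fits were tested on simulated data. Alternatives were other pseudocounts, filters, captures, cells, scalings and cluster numbers. Gene positions are from GENCODE M21 and promoter and miRNA sequences from RefSeq.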

Additional observations from a re-analysis of the deposited data

How the results depend on the processing

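Over all sorted cells, the counts of 31 genes higher and 13 lower at E16.5 changed with most choices. They were 17 and 17 with a pseudocount of 0.1, 58 and 8 with 5, 5 and 0 with no filter, 47 and 29 with a minimum mean of 5 RPKM, 138 and 56 with the mean of log2 values per cell, 12 and 3 without the trend, and 29 and 3 on the 4 captures alone. With 1 capture left out, which leaves a lone capture assumed to vary like the other stages, they ranged from 2 to 5 higher and from 1 to 7 lower. The other settings stayed within 1.5 times of both counts: 29 and 10 on the 6 captures of the 10 M setting, 37 and 13 with median-ratio scaling, 30 and 12 with all cells, 35 and 18 without cells with germ cell markers, and 30 and 13 without wells 49 and 56. Of the 44 called genes, 29 were also called with a pseudocount of 0.1, 37 with 5, 3 with no filter, 33 with the mean of log2 values and 28 on the 4 captures alone. Of the 13 genes that fell, only Myl7, Hmga2 and Aldh1a2 passed on the 4 captures alone.

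Within Sertoli-like cells the counts of 0 and 0 ranged from 0 to 12 higher and from 0 to 1 lower with 1 capture left out, and were 2 and 1 with cells chosen by Amh. Within the other cells the counts of 3 and 6 ranged from 0 to 13 and from 0 to 70 with 1 capture left out, and were 5 and 11 with 10 clusters, 6 and 3 with a pseudocount of 5, and 0 and 0 with no filter. The cause of these changes was not tested.

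A few directions reversed when 1 capture was left out. The difference of the Y-linked gene Uty, 0.41 on the log2 scale, ranged from -0.16 to 0.99. The difference in the share of cells with Sox9, -3.16 points, ranged from -22.4 to 16.1 and was 13.3 at a threshold of 10 RPKM. The share with Insl3, 4.16 points, ranged from -0.11 to 8.43. The share with Top2a, -10.4 points, ranged from -39.4 to 18.6, the highest value being that without the second E12.5 capture. Among the called genes and the list members named by rule no other direction reversed. Genes named after their values were seen, such as Cst9, Sox9 and Tcf21, were not part of this check of differences in level. No paired analysis was possible because the capture numbers come from the order of capture dates and do not pair captures between stages.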
